A study of Mus musculus with 4 samples.

Results

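The genes described here carry coenzyme A synthesis and turnover: Vnn1, Vnn3, Pank1, Pank2, Pank3, Pank4, Ppcs, Coasy, Nudt7 and Nudt19. They were found through the array's annotation, as the probe sets that name a gene of this list and no other gene. That gave 22 probe sets for the 10 genes, out of 45037 probe sets on the array, and all 22 reached the median signal of at least 1 array. The members were chosen by measured values in part: the list was proposed after the starvation response of Vnn1 on these arrays had been seen, so the starvation values below are a description and not a test.

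The study profiled the gastrocnemius, a fast calf muscle, of male mice aged 2 to 4 months on a mixed C57BL/6N and FVBN background. Control mice carried floxed FoxO1, FoxO3 and FoxO4 genes (FoxO1,3,4 f/f, called wild type in the sample labels), and knockout mice carried the same floxed genes with Cre recombinase driven by the MLC1f promoter. Each genotype was either fed freely or starved for 24 h with water. For each of the 4 conditions, RNA of 6 muscles from 3 mice was pooled and hybridized to 1 array, so that no condition has a replicate, no test was possible and precision is limited by having 4 arrays. The MLC1f promoter is active in type II fibres, and cells of the muscle other than these fibres keep their FoxO genes.

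The arrays were checked against their labels. Foxo4 had signals of 296.9 and 291.3 in controls, fed and then starved, and of 31.3 and 34.3 in knockouts. Foxo1 stood at 303.8 and 554.4 in controls and at 185.2 and 165.5 in knockouts in that order, and Foxo3 at 250.1, 477.8, 297.3 and 460.9. Where the Foxo3 probe sets lie relative to the deleted part was not analysed here. All 10 muscle markers were kept, with a summed signal between 136323 and 145979, and hair shaft markers differed between arrays, as given beside the last results.

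Coenzyme A is the carrier to which cells attach fatty acids and acetate before burning them. It is built from pantothenate, vitamin B5, in a short pathway: pantothenate kinases (Pank1 to Pank3) phosphorylate the vitamin in the controlling step, Ppcs adds cysteine, and Coasy performs the last steps. Vanin-1 and vanin-3, encoded by Vnn1 and Vnn3, are extracellular pantetheinases that split pantetheine into pantothenate and cysteamine, and so return the vitamin to the start of the pathway. Nudt7 and Nudt19 encode peroxisomal Nudix hydrolases that cut coenzyme A and its acyl esters. In liver, starvation is known to raise the coenzyme A pool, with PPAR alpha as one of the factors that act on Pank1 and Vnn1.

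The sequences that can be set beside these genes are the promoters, shown for the pathway's kinase gene that responded to starvation and for Vnn3, and the microRNAs that lie inside the pantothenate kinase genes. All are from RefSeq on mouse build GRCm38.p6, in which the promoter table held 12 windows for 8 of the 10 genes (not Vnn1 and Coasy), each running from 250 bases before a transcript start to 50 after it. The 250 bases before each start are printed, 5′ to 3′ on the gene's strand. Pank1 has 2 windows, for separate transcript starts, at chr19:34877918-34878167 (start 1) and chr19:34879456-34879705 (start 2), both on the minus strand, and Vnn3 has one at chr10:23851212-23851461 on the plus strand. Capitals mark the FoxO core motif GTAAACA, which reads TGTTTAC on the other strand.
Pank1 start 1: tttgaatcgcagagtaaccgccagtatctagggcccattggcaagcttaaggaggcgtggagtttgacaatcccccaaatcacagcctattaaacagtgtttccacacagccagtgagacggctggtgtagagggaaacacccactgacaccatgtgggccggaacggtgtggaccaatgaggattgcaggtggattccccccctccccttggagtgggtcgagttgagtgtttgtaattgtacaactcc
Pank1 start 2: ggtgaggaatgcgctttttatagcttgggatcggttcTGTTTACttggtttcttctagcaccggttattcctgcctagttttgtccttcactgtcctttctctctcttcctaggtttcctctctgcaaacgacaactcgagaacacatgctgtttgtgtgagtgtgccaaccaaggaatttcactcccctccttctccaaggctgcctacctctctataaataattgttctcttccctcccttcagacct
Vnn3: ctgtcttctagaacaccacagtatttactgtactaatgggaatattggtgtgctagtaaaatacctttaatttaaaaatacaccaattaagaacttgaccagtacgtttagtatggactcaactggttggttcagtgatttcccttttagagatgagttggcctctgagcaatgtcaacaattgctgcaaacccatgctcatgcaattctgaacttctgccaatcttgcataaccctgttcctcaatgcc

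The core motif was present in 1 of the 12 windows of these genes, that of Pank1 start 2, where it lay 213 to 207 bases before the start. Over all 32851 mouse windows of the same length it was found in 3.65%. The half-site AGGTCA of nuclear receptors such as the PPARs, which does not overlap the FoxO core and reads TGACCT on the other strand, was also in 1 of the 12 windows, that of Ppcs, against 16.3% of all windows, and no window of these genes held it as a direct repeat spaced by 1 base. A match describes letters in a window and is not a binding site.

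Each of 3 pantothenate kinase genes encloses a microRNA gene on its own strand: Mir107 in Pank1, at chr19:34820700-34820722 for the mature form, Mir103-2 in Pank2, at chr2:131288103-131288125, and Mir103-1 in Pank3, at chr11:35782447-35782469. The mature forms are shown because they differ between the kinase gene that responded and the 2 that did not. Capitals mark the seed, bases 2 to 8 from the 5′ end.
mmu-miR-107-3p (Pank1): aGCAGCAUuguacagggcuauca
mmu-miR-103-3p (Pank2 and Pank3): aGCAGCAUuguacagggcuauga

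The seeds were identical, and the mature forms differed by G22C, with miR-103-3p named first and positions counted from the 5′ end. The array measures the host transcripts and not the mature microRNAs.

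In control muscle, Vnn1, Vnn3 and Pank1 rose on starvation, and the other 7 genes stayed within a ratio of 1.5, the study's threshold. Where a gene had several probe sets, the brightest on average was read for it, and the signal is the MAS 5.0 brightness on a linear scale, used as deposited. With this rule, 3 of the 10 genes were up and 0 down in starved over fed control muscle, where 9.23% of the 12565 genes kept were up and 14.2% down. Knockout muscle had the same 3 genes up and 0 down, with 7.39% of all genes up and 9.45% down. Vnn1, Vnn3 and Pank1 are thus among the 331 genes, 2.63% of those kept, that were up in both genotypes. Vnn3 passed the filter through the starved knockout array alone, where it was highest. Both its control signals lay below the array medians. Because Vnn1 led to the choice of the list, nothing is read from these shares. Over the 10 genes the log2 fold changes had a median of 0.16 in controls and 0.22 in knockouts, against -0.11 and -0.06 over all genes. In RNA of whole muscle, fewer cells of a type and less RNA per cell cannot be told apart.

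**Figure D1:**
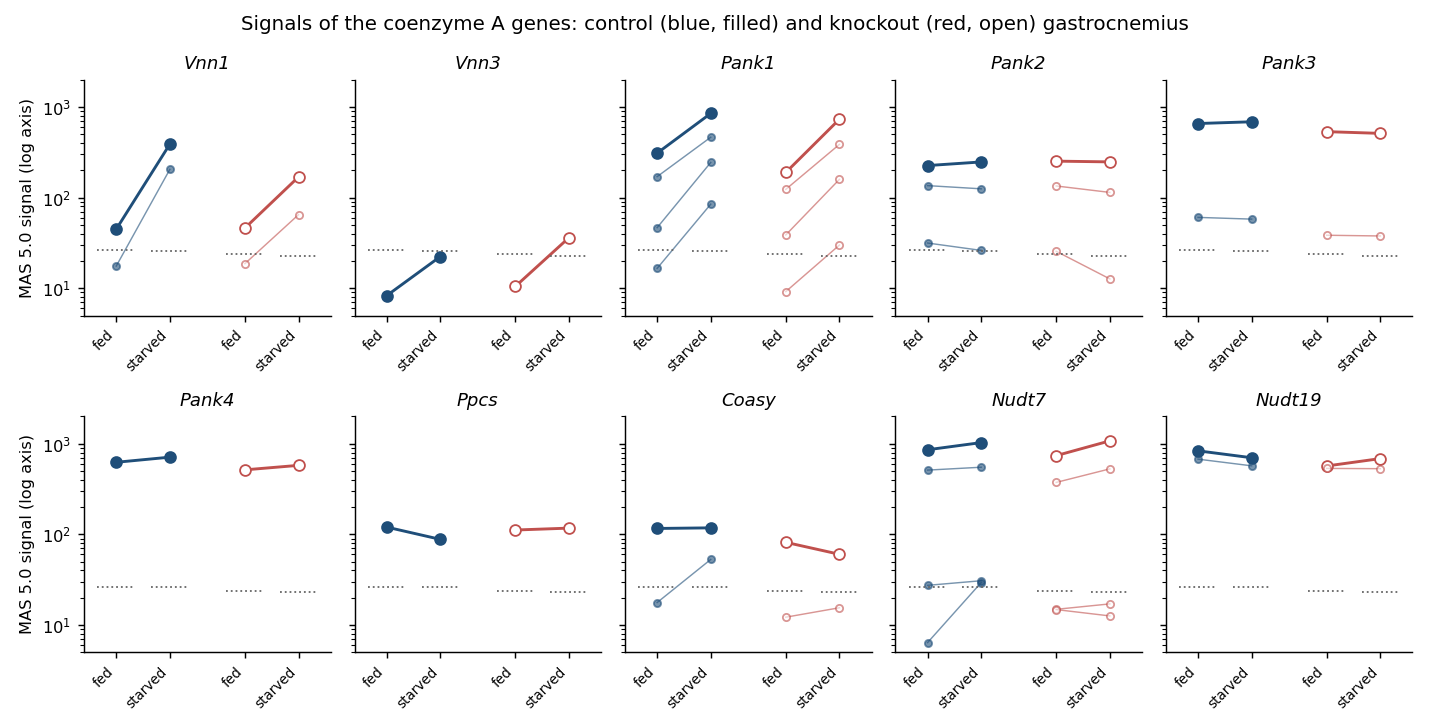
MAS 5.0 signal (log axis) of each probe set of the 10 genes on the 4 arrays, control in blue with filled points and knockout in red with open points; lines join the fed and starved arrays of a genotype, heavy lines mark the probe set read for the gene, and dotted bars give each array's median signal. All probe sets of Vnn1, Vnn3 and Pank1 climb from fed to starved in both genotypes, while those of Pank3, Pank4 and Nudt19 stay within 1.5-fold of their fed signal.

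Vnn1 encodes the membrane-anchored vanin. Its signal was 44.9 in fed control, 389.7 in starved control, 46.2 in fed knockout and 169.3 in starved knockout muscle. The fed arrays were nearly equal and both starved arrays were higher, with the starved control highest. The rise was 8.68-fold (log2 3.12) in control muscle, rank 42 of 12565 genes, and 3.66-fold (log2 1.87) in knockout muscle, rank 170. Another Vnn1 probe set may also match other transcripts by its design suffix. It gave the same order of the starved arrays, with 17.6 in fed control, 205.2 in starved control, 18.7 in fed knockout and 64.9 in starved knockout muscle. There the rise was 11.7-fold in controls and 3.47-fold in knockouts, from fed signals below the array medians of 26.3 and 23.8.

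Vnn1 was the only gene of the 10 whose starvation response differed between genotypes by 1.5-fold or more on the probe set read for the gene. The difference of its log2 fold changes, control minus knockout, was 1.24 on that probe set and 1.75 on the other. The difference also passed 1.5-fold on the dimmest probe set of Pank1 (0.65), Pank2 (0.74), Coasy (1.23) and Nudt7 (2.43). With averaged probe sets Coasy passed it as well, at 0.85. Over all genes, 10.4% had a difference at least this threshold in the direction of control and 12.3% in the direction of knockout. Between probe sets of the same gene, the difference scattered with an SD of 0.61 in the class of signals that holds the brighter Vnn1 probe set and 0.71 in the class of the dimmer, which measures the scatter of probe sets on these arrays and not that between mice.

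Vnn3 lies next to Vnn1 on chromosome 10 with no coding gene between them. Its only probe set was dim, at 8.3 in fed control, 22.4 in starved control, 10.5 in fed knockout and 36.2 in starved knockout muscle. It reached the array median on the starved knockout array alone, and passed the filter on dim signals through that array. The starved signal was above the fed signal in both genotypes, with the highest value in the starved knockout, whereas for Vnn1 the starved control was highest. The ratio was 2.70 (log2 1.43) in control and 3.45 (log2 1.79) in knockout muscle, and with 16 added to each signal the log2 ratios were 0.66 and 0.98. At this signal the scatter between probe sets of a gene had an SD of 0.74 and 0.78 in log2, so that the control value is less than 2 SD from 0.

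Pank1 encodes a pantothenate kinase that is known to rise in the fasted liver. On the probe set read for the gene its signal was 309.8 in fed control, 850.1 in starved control, 189.6 in fed knockout and 733.2 in starved knockout muscle. Both starved arrays were above both fed arrays. The rise was 2.74-fold (log2 1.46) in control and 3.87-fold (log2 1.95) in knockout muscle, ranks 229 and 162 of the 12565 genes. The SD between probe sets of a gene at this signal was 0.27 and 0.26 in log2.

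The other Pank1 probe sets rose in both genotypes too. The next brightest was at 170.6 in fed control, 464.1 in starved control, 123.5 in fed knockout and 386.9 in starved knockout muscle. A dimmer one gave 46.7, 244.6, 38.8 and 159.1 on these arrays, and the dimmest 16.6, 84.8, 9.2 and 30.0. Their folds lay between 2.72 and 5.24 in control and between 3.13 and 4.10 in knockout muscle. The sign of the difference between genotypes was not shared: control minus knockout was -0.49 and -0.20 in log2 on the brighter pair of probe sets and 0.35 and 0.65 on the dimmer pair, so that no direction is given for Pank1 in that comparison.

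The remaining pantothenate kinase genes did not share the response. Pank2, the kinase gene mutated in a form of neurodegeneration with brain iron, was at 226.0 in fed control, 247.8 in starved control, 252.9 in fed knockout and 248.2 in starved knockout muscle, with log2 fold changes on starvation of 0.13 and -0.03. Its second probe set gave -0.12 and -0.24. The dimmest Pank2 probe set, at 31.6, 26.2, 25.6 and 12.7, gave -0.27 in control and -1.01 in knockout muscle, the only one of the 22 called down on starvation in either genotype.

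Pank3 was at 657.6 in fed control, 687.3 in starved control, 534.9 in fed knockout and 512.1 in starved knockout muscle. Its log2 fold changes on starvation were 0.06 and -0.06 on this probe set and -0.06 and -0.03 on the other. Both knockout arrays were below both control arrays on each of the Pank3 probe sets, but the knockout arrays ran lower over all genes too. Minus the median of all genes, log2 knockout over control was -0.10 in fed and -0.26 in starved muscle on the brighter probe set. On the other it was -0.46 in both, so that all were within the threshold. Pank4, which belongs to the family by sequence and lacks pantothenate kinase activity, was at 624.1, 710.8, 514.9 and 577.2 in the same order, with log2 fold changes of 0.19 and 0.16. Both knockout arrays were again below both control arrays, at -0.08 in fed and -0.14 in starved muscle minus the median of all genes.

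**Figure D2:**
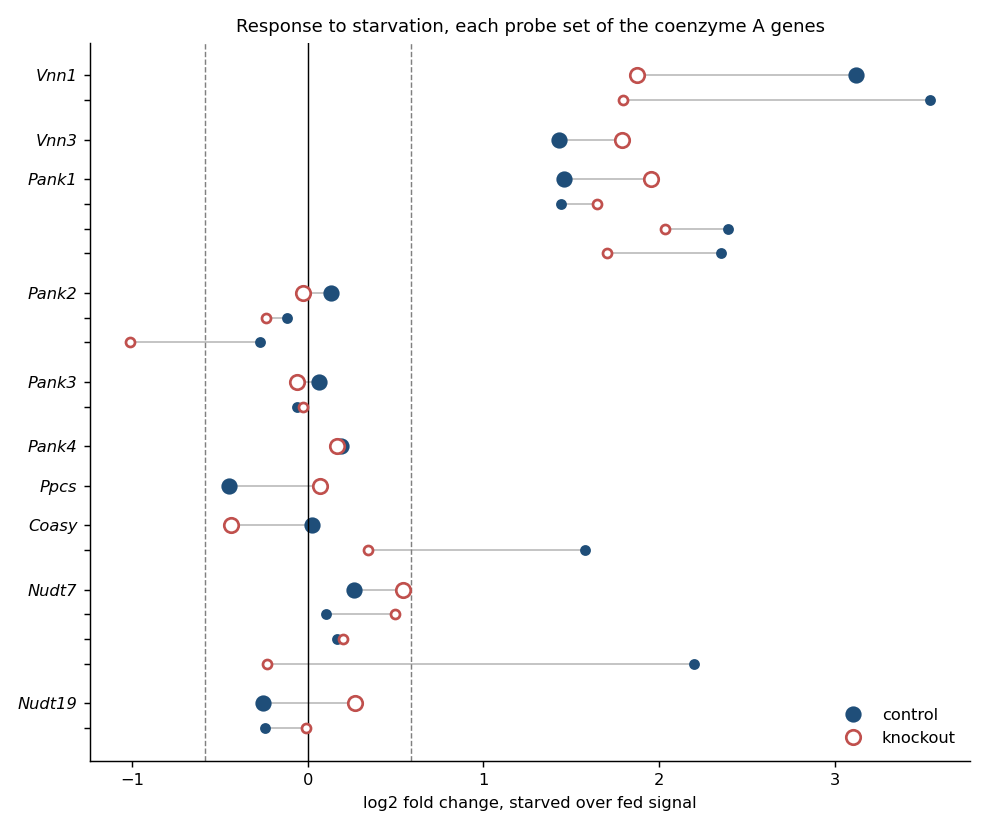
Log2 fold change of the starved over the fed signal for each of the 22 probe sets, control as filled and knockout as open points, with large points for the probe set read for the gene and dashed lines at the 1.5-fold threshold. The 7 probe sets of Vnn1, Vnn3 and Pank1 lie right of the threshold in both genotypes, from 1.43 to 3.54 in controls and from 1.65 to 2.04 in knockouts; the 15 of the other genes lie between -0.45 and 2.20 in controls and between -1.01 and 0.54 in knockouts.

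The enzymes downstream of the kinases showed no rise shared by the genotypes. Ppcs, phosphopantothenoylcysteine synthetase, was at 120.3 in fed control, 88.1 in starved control, 111.7 in fed knockout and 117.2 in starved knockout muscle, lowest on the starved control array. On starvation Ppcs had a log2 ratio of -0.45 in controls and 0.07 in knockouts. This probe set may also match other transcripts by its design suffix. A further probe set is annotated to Ppcs together with the gene model Gm8465 and was not read.

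Coasy, coenzyme A synthase, was at 116.2 in fed control, 118.0 in starved control, 81.7 in fed knockout and 60.3 in starved knockout muscle. Both knockout arrays lay below both control arrays. Starved over fed, Coasy had a log2 ratio of 0.02 in controls and -0.44 in knockouts. A dim Coasy probe set, which may also match other transcripts by its design suffix, was at 17.7, 52.9, 12.2 and 15.5 in the same order, above the median only on the starved control array. It gave a 2.99-fold rise in control muscle, so that the Coasy probe sets disagree on the response there.

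The hydrolases that break coenzyme A down stayed within the threshold as deposited, and Nudt7 was at its edge in knockout muscle. Nudt7 was at 857.7 in fed control, 1029 in starved control, 739.1 in fed knockout and 1075.5 in starved knockout muscle, higher on both starved arrays. The ratio was 1.20 (log2 0.26) in control and 1.45 (log2 0.54) in knockout muscle. Relative to all genes the knockout ratio was 1.52, and Nudt7 was called up there under each of the 3 array scalings, at log2 0.58 to 0.60. Of the other Nudt7 probe sets, the brighter gave log2 0.11 and 0.50 and a dim one 0.17 and 0.20. The dimmest, at 6.4, 29.4, 14.8 and 12.6, was above the median on the starved control array alone and gave 2.20 and -0.23.

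Nudt19 was at 834.8 in fed control, 700.4 in starved control, 568.1 in fed knockout and 685.4 in starved knockout muscle, highest on the fed control array and lowest on the fed knockout array. Starved over fed, its log2 ratio was -0.25 in controls and 0.27 in knockouts, and its other probe set gave -0.24 and -0.01. Over the 15 probe sets of the 7 genes other than Vnn1, Vnn3 and Pank1, 2 were up in control muscle, the dim ones of Coasy and Nudt7, and 0 in knockouts.

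**Figure D3:**
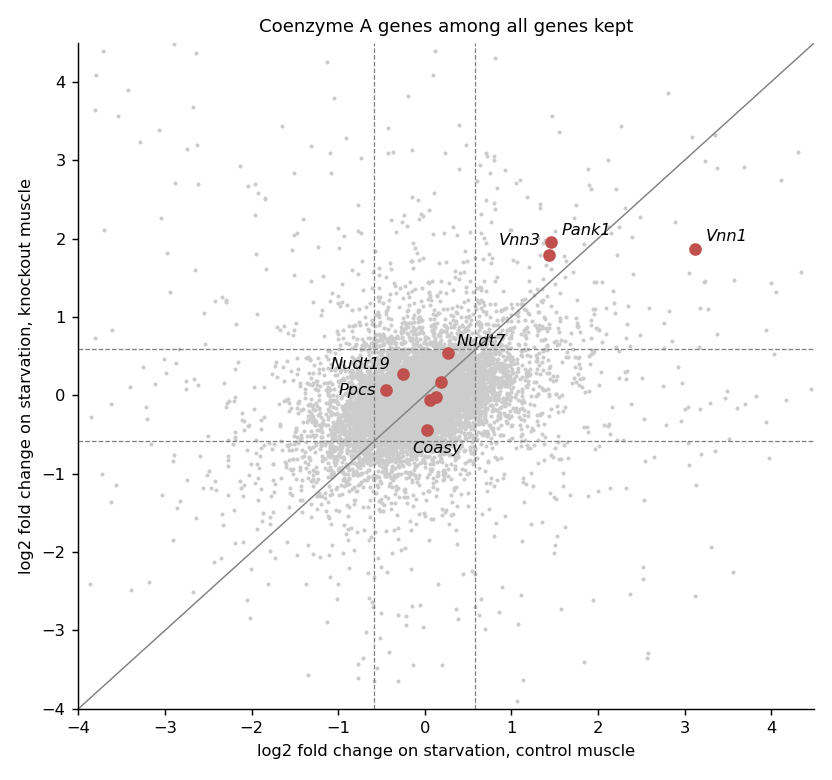
Starved over fed log2 fold change in control (x axis) against knockout muscle (y axis) for the genes kept (grey; 58 lie outside the axes) and the 10 coenzyme A genes (red; Pank2, Pank3 and Pank4 lie unlabelled near the centre), with dashed lines at the 1.5-fold threshold and a line of equal change. Vnn3 and Pank1 lie in the upper right corner slightly above the line of equal change and Vnn1 below it, at 3.12 and 1.87.

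Loss of FoxO was also read directly, as knockout over control at the same feeding state. The arrays are not on a common scale: the median log2 ratio of knockout over control over all genes was -0.20 in fed and -0.16 in starved muscle, and it lay between -0.05 and 0.02 when the arrays were scaled to the same median or trimmed mean or quantile normalized. Ratios are therefore given as deposited and relative to the median of all genes. The share of genes up among those called moved from 23.1% as deposited to between 40.0% and 47.0% under these scalings in fed muscle, and from 30.4% to between 53.9% and 55.2% in starved muscle.

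In fed muscle, 0 of the 10 genes were up and 1 was down in the knockout as deposited, where 3.38% of all genes were up and 11.3% down. The gene was Pank1, at log2 -0.71 on the probe set read for it and between -0.85 and -0.27 on its other probe sets. Relative to all genes it was at -0.51, within the threshold, and with any of the 3 scalings no gene of the 10 was called in fed muscle. Vnn1 was at 0.04 in this comparison and Vnn3 at 0.34. Nudt19 was at -0.56 and Coasy at -0.51, or -0.36 and -0.31 relative to all genes.

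In starved muscle, Vnn3 was up and Vnn1 and Coasy were down in the knockout, 1 and 2 of the 10 genes, where 6.39% of all genes were up and 14.6% down. Vnn1 was at 0.434 times the control signal (log2 -1.20) and at -1.66 on its other probe set. Coasy was at 0.511 times (log2 -0.97) and at -1.77 on its dim probe set. Relative to all genes these log2 ratios were -1.04 and -1.50 for Vnn1 and -0.81 and -1.61 for Coasy, past the threshold on every probe set of both genes. Vnn3 was at 1.62 times (log2 0.69) on its dim probe set, or 0.85 relative to all genes, and fell within the threshold when 16 was added to each signal. It passed the filter on dim signals only through the starved knockout array, so its call here is a description. Ppcs, at 0.41, passed the threshold upwards under each of the 3 scalings. Pank1 was at -0.21 on the probe set read for it and at -0.26, -0.62 and -1.50 on the others, 2 of 4 past the threshold, and averaged over its probe sets it was down at -0.65. Nudt7 was at 0.06 on the probe set read for it, at -0.06 on the next brightest and at -0.85 and -1.22 on the dim ones.

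**Figure D4:**
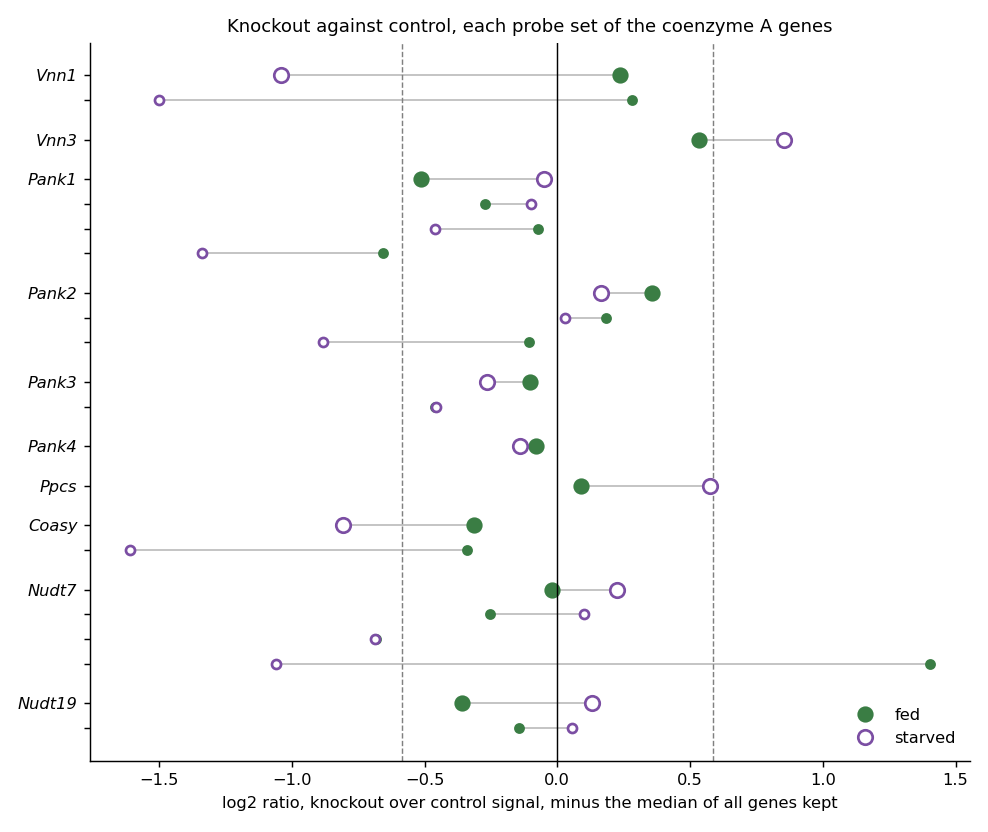
Log2 ratio of the knockout over the control signal minus the median of all genes, for each of the 22 probe sets, with fed muscle as filled green and starved muscle as open purple points, large points for the probe set read for the gene and dashed lines at the 1.5-fold threshold. Both Vnn1 probe sets sit at 0.24 and 0.28 in fed and at -1.04 and -1.50 in starved muscle, and both Coasy probe sets are further below 0 in starved than in fed muscle.

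The genes whose 4 signals were most like those of Vnn1 were Ddit4, Cebpd, Arrdc2, Angptl4 and Kcnf1. Likeness was the Euclidean distance between log2 signals centred over the 4 arrays, over 7426 genes with a signal at the 75th percentile or above on some array, and it ranks patterns over 4 arrays with no test. Ddit4, an inhibitor of mTORC1 signalling, was nearest at a distance of 0.29, with log2 fold changes on starvation of 3.30 in control and 2.00 in knockout muscle. Cebpd, a transcription factor induced by glucocorticoids, was at a distance of 0.55 with fold changes of 3.22 and 1.45. Arrdc2 was at 0.60, Angptl4, a secreted inhibitor of lipoprotein lipase, at 0.69 and Kcnf1, a potassium channel subunit, at 0.74. Control minus knockout in log2 was 1.24 for Vnn1, 1.30 for Ddit4, 1.77 for Cebpd and 1.74 for Arrdc2. It was 0.20 for Angptl4 and 0.07 for Kcnf1, which rose to a similar extent in both genotypes.

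The same measure for Pank1, added after its values had been seen, gave Rbp7, Slc25a34, Lox, Car4 and Pck1. Rbp7, a retinol-binding protein, was at a distance of 0.27 from Pank1 with log2 fold changes on starvation of 1.61 in control and 1.77 in knockout muscle. Angptl4 was on the list of PPAR-induced genes as well as near Vnn1.

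Among the other genes of coenzyme A supply, 1 transporter was past the threshold upwards in both genotypes. Of the 9 listed, all were kept, and starvation left 1 up and 1 down in controls and 1 up and 0 down in knockouts. Over all genes, 9.23% were up and 14.2% down in controls, and 7.39% and 9.45% in knockouts, so that nothing is read from these counts. The gene up in both was Slc25a42, the carrier that brings coenzyme A into mitochondria, at 135.4 in fed control, 215.7 in starved control, 133.7 in fed knockout and 217.8 in starved knockout muscle, or log2 0.67 and 0.70. Dcakd, a gene with a dephospho-coenzyme A kinase domain, was down in control muscle at log2 -0.96, from 32.2 to 16.6, and at -0.36 in knockout muscle.

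Ppcdc, the decarboxylase between Ppcs and Coasy, was at 53.6, 51.1, 52.4 and 50.4 on the fed control, starved control, fed knockout and starved knockout arrays. Nudt8, a mitochondrial coenzyme A hydrolase, had log2 fold changes on starvation of 0.54 in controls and 0.21 in knockouts, and Slc25a16, a mitochondrial carrier, of -0.20 and -0.56. Slc5a6, the sodium-dependent vitamin transporter that takes up pantothenate, had -0.27 and 0.07, and its starved knockout signal was above the starved control at log2 0.72. Slc25a17, the peroxisomal carrier, had 0.13 and -0.15, Aasdhppt, which transfers phosphopantetheine to acyl carrier protein, -0.24 and 0.02, and Btd, biotinidase, a relative of the vanins, -0.13 and 0.29.

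Cysteamine, the other product of vanins, is oxidized to hypotaurine by Ado. None of the 6 genes of cysteamine oxidation and taurine supply was called on starvation in either genotype, with medians of -0.32 in controls and -0.20 in knockouts. Over all genes, 9.23% were up and 14.2% down in controls, and 7.39% and 9.45% in knockouts. Ado had log2 fold changes of -0.34 and -0.33, Cdo1, cysteine dioxygenase, of -0.33 and -0.10, Gadl1 of -0.32 and 0.04, and Slc6a6, the taurine transporter, of -0.36 and -0.53.

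Among the enzymes that load coenzyme A with acyl groups, 9 of 13 listed were kept, and 2 were up in control and 3 in knockout muscle, with 0 down in either. The shares over all genes were 9.23% and 7.39% up and 14.2% and 9.45% down. Acss1, the mitochondrial acetyl-CoA synthetase, was at 217.0 in fed control, 994.8 in starved control, 169.6 in fed knockout and 352.5 in starved knockout muscle, a rise of log2 2.20 and 1.06. Slc27a1, a fatty acid transport protein with synthetase activity, rose by 0.89 and 0.65 in log2. Acsl3 had log2 fold changes of -0.06 and 0.72, and Acsf3, the malonyl-CoA synthetase, of 0.39 and 0.51.

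Of 26 listed genes that PPARs induce for fatty acid use, 23 were kept. Of these, 11 were up in controls and 15 in knockouts and 0 were down, where 9.23% and 7.39% of all genes were up, and the list's median log2 fold change was 0.58 and 0.61. The others did not pass the threshold, among them Acadm, medium-chain acyl-CoA dehydrogenase, at -0.16 and 0.10, and Lpl, lipoprotein lipase, at 0.04 and 0.00. Acot1 and Acot2, thioesterases that release coenzyme A from acyl-CoA, rose by 3.35 and 3.24 in control and by 3.32 and 2.99 in knockout muscle. Pdk4, pyruvate dehydrogenase kinase, rose by 2.12 and 3.01, and Angptl4 by 2.48 and 2.28.

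The PPARs and their partners were read as transcripts only, and PPAR activity was not measured. Of 8 PPAR and partner genes, 2 fell and 0 rose in starved controls, and 0 were called in knockouts. Over all genes, 14.2% fell and 9.23% rose in controls, and 9.45% fell and 7.39% rose in knockouts. These counts of 8 genes are not read further. Those down were Rxrg, at 501.8 in fed control, 209.1 in starved control, 489.1 in fed knockout and 515.8 in starved knockout muscle, and Ppargc1b, at 416.6, 157.1, 359.4 and 285.0. Ppara had log2 fold changes of -0.53 and -0.24, and Rxrb of 0.55 and 0.31. Of 28 genes of peroxisomal proteins, the compartment of Nudt7 and Nudt19, 24 were kept, with 1 up and 3 down in controls and 1 up and 2 down in knockouts. Nothing is read from these counts beside the same shares over all genes. Cat, catalase, rose by 0.93 and 0.78, whereas Abcd2, an acyl-CoA transporter, fell by 1.21 and 0.60 in log2. Pex7 had -0.63 and -0.28, and Acot8, a peroxisomal thioesterase, -1.01 and -0.09.

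**Figure D5:**
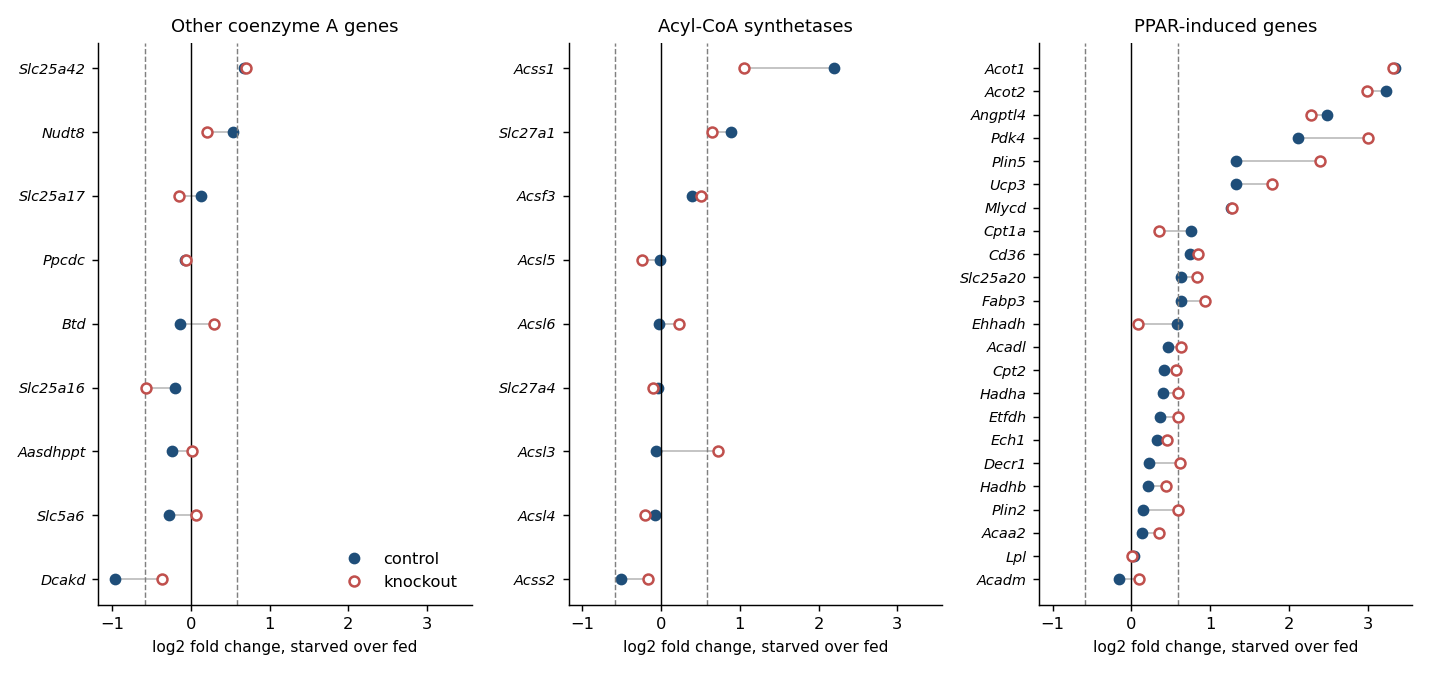
Log2 fold change of the starved over the fed signal in control (filled) and knockout muscle (open) for the kept genes of 3 lists around the pathway, ordered by the control value, with dashed lines at the 1.5-fold threshold. Slc25a42 is the only other coenzyme A gene past the upper threshold in both genotypes, Acss1 and Slc27a1 are the synthetases, and Acot1 and Acot2 lead the PPAR-induced genes at 3.35 and 3.24.

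Markers of other cells moved between arrays beside these results. Over the 15 hair shaft and epidermis markers, all kept, the summed signal was 1350.8 in fed control, 746.7 in starved control, 1082.1 in fed knockout and 2318.1 in starved knockout muscle. The sum was highest on the array where Vnn3 was highest. In controls the sum fell on starvation, while Vnn3 and the epidermis markers named below rose. Krt25 was at 252.9, 6.9, 18.2 and 318.5, Krt27 at 91.7, 2.1, 27.8 and 120.1, S100a3 at 180.9, 1.3, 1.8 and 117.5 and Krtap15 at 149.0, 8.8, 1.4 and 523.9. In controls 9 of the 15 were down on starvation and 5 up, and in knockouts 2 were down and 9 up. Over all genes, 14.2% were down and 9.23% up in controls, and 9.45% and 7.39% in knockouts. In starved knockout over control 10 of the 15 were up and 1 down, where 6.39% of all genes were up and 14.6% down. Epidermis markers, named here after their values were seen, were those up in controls. Lor was at 12.5, 177.5, 132.8 and 131.5, Krt1 at 2.9, 22.6, 29.2 and 23.3 and Krt15 at 3.1, 27.2, 26.9 and 12.2. Krt14 was at 13.3, 49.5, 44.7 and 63.1, and Krt10 at 200.6, 349.4, 657.6 and 295.3. Of 13 neutrophil markers 6 were kept, and their sum went from 266.6 fed to 565.3 starved in controls and from 352.1 to 708.2 in knockouts. Without Lcn2, the sum of the other 5 went from 228.5 to 453.8 in controls and from 301.5 to 187.4 in knockouts. Of the 6 markers, 5 were up in controls, with a median log2 fold change of 1.35, and 1 was up and 2 down in knockouts, with a median of -0.33. S100a8 was at 69.5, 177.6, 84.4 and 60.2, and S100a9 at 52.4, 133.5, 91.8 and 30.0. Both were highest on the starved control array, as Vnn1 was, and were lower in starved than in fed knockouts. Lcn2, at 38.1, 111.5, 50.6 and 520.8, was highest on the starved knockout array. Elane was at 3.9, 22.4, 33.0 and 6.5. The part of these cells in the Vnn1 and Vnn3 values was not tested.

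The other marker sums moved less. Over all 10 macrophage markers the sum was between 5299.2 and 7799.1, lowest in the starved knockout. Over 6 of 8 adipocyte markers it was between 31253.8 and 35295.6, and over 8 endothelial markers between 2641.4 and 3491.4. Car3 and Fabp4 gave the largest signals of the adipocyte sum, and single adipocyte markers moved more. On starvation 1 was up and 0 down in controls, and 2 were up and 1 down in knockouts. The shares over all genes were 9.23% up and 14.2% down in controls, and 7.39% and 9.45% in knockouts. Cidec was up in both, at log2 1.08 and 1.01. In starved knockout over control 0 were up and 3 down, where 6.39% of all genes were up and 14.6% down.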

How the data were processed

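The authors profiled RNA on Affymetrix Mouse Genome 430 2.0 arrays, 1 array per condition. The deposited values are signal intensities on a linear scale from the MAS 5.0 algorithm, with Affymetrix Expression Console named in the submitters' processing notes. No source used here gives the scaling target or detection calls. Median signals were between 22.9 and 26.3.

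The platform annotation gave 1 gene for 34945 of 45037 probe sets, several for 932, which named no gene, and listed 9160 not at all. For 34741 of the 34945, the RefSeq symbol was looked up by gene identifier, whether or not it differed from the annotated one. Probe sets at or above the 50th percentile of at least 1 array were kept, each gene was read on its brightest probe set by mean over the arrays, and a signal below 0.1 was set to 0.1 before log2. A ratio of at least 1.5, the study's threshold, was up and its inverse down. The scatter between probe sets of a gene was taken in 5 classes of mean signal. Python 3.11.15, numpy 2.4.6, pandas 2.3.3 and matplotlib 3.10.9 were used. The step that makes the calls was run on simulated data with known changes, which held no variation between mice.

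The 10 genes and the 15 gene lists (those reported, with 7 type I fibre markers, of which 0 were called in any comparison of starved with fed muscle) were chosen with earlier results of these data known. Named were all 10 genes, the FoxO genes, all other coenzyme A genes, up to 4 genes of each further list with the largest change on starvation, and the 5 genes most like Vnn1. The nearest genes to Pank1 were added later. Alternatives were 3 array scalings, no or a stricter filter, an offset, 2 other readings of a gene's probe sets and a 2-fold threshold. A further alternative left out every probe set with the suffix _s_at, _x_at or _a_at. No replicate could be left out.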

Additional observations from a re-analysis of the deposited data

Results flagged for a closer look

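On the probe set read for the gene, 5 of the 10 genes moved in opposite directions on starvation in the genotypes, and none of these differences was tested, with 1 array per condition. Control minus knockout in log2 was 0.16 for Pank2, 0.13 for Pank3, 0.46 for Coasy, -0.52 for Ppcs and -0.52 for Nudt19. All 10 log2 fold changes behind them, from -0.45 to 0.27, lay within the 1.5-fold threshold. The tally depends on the scale of the arrays: Pank2 had the same sign in both genotypes under all 3 scalings, with 0.15 to 0.21 in controls and 0.02 to 0.03 in knockouts, and Pank3 under quantile normalization, with 0.15 and 0.01. Ppcs has no other probe set, and none of the others kept opposite signs on a further probe set: Coasy had 1.58 and 0.35 in controls and knockouts, Pank3 -0.06 and -0.03, Nudt19 -0.24 and -0.01, and Pank2 -0.12 and -0.24 on one and -0.27 and -1.01 on the other.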

How the results depend on the processing

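Vnn1 and Pank1 were up on starvation in both genotypes under all 10 alternatives run, and Vnn3 in all but the 75th percentile filter, which left it out. The count of genes called on starvation in control muscle went from 3 to 5 when a gene's probe sets were averaged, which added Coasy and Nudt7. In knockout muscle it went from 3 to 4 with any of the 3 array scalings, which added Nudt7, and to 2 with the 75th percentile filter. In fed muscle, the count between genotypes went from 1 to 0 with arrays scaled to the same median or trimmed mean, with quantile normalization, with averaged probe sets and at 2-fold, and to 2 (Pank1 and Nudt7) without suffix-marked probe sets, where Ppcs and Nudt19 had no value. In starved muscle it went from 3 to 1 (Vnn1) with the 75th percentile filter, which kept 7 of the 10 genes, and at 2-fold, to 2 with the offset (without Vnn3), and to 4 with any of the 3 scalings (adding Ppcs up), with averaged probe sets (adding Pank1 down at -0.65) and without suffix-marked probe sets (adding Nudt7 down at -0.85). Over all genes, those down in fed knockout muscle went from 1416 to between 776 and 903 under the 3 scalings, and those up in starved knockout muscle from 803 to between 1241 and 1279. No ratio past the threshold changed sign, but 21 of the 425 values recomputed for single genes did, all of ratios within it. With averaged probe sets, control minus knockout went from -0.49 to 0.08 for Pank1 and from -0.28 to 0.43 for Nudt7. For Coasy it went from 0.46 to 0.85, past the threshold, so that Vnn1 was then not the only gene past it. Knockout over control in starved muscle went from 0.06 to -0.52 for Nudt7 and from 0.00 to -0.39 for Pank2. The cause was not tested. With dim signals a ratio rests on little brightness over background, as for Vnn3, Dcakd and the dimmest probe sets of Pank2, Coasy and Nudt7. No paired analysis was possible because each condition has 1 array and no test was run.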
